A study of Danio rerio with 8 samples.

Results

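The transforming growth factor beta (TGF-beta) and bone morphogenetic protein (BMP) pathway was followed in cells sorted from adult zebrafish ventricles, through 50 listed ligands, receptors, Smads, antagonists and Id targets. Members were found by gene symbol, with or without a paralog letter, since many identifiers carry a human-style symbol. Of the 50 members 47 were matched, to 54 of the 31388 gene identifiers in the table, and 45 identifiers reached 1 TPM (a transcript level corrected for length, with an equal sum in all libraries) in at least 2 libraries. No identifier could be assigned to eng, nog1 or nog3. In this pathway, secreted dimeric ligands bring together type I and type II receptor kinases, which phosphorylate receptor Smads that enter the nucleus with SMAD4. TGF-beta and activin ligands act mainly through SMAD2 and SMAD3 and BMPs through SMAD1, SMAD5 and smad9, while secreted antagonists hold ligands away from receptors and Id genes are direct targets of BMP signals. In the heart the pathway is known for roles in valve and epicardial development, in fibrosis after injury and in vessel growth.

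All fish carried the reporter Tg(-6.8wt1a:EGFP). Its green fluorescent protein (GFP) is driven by sequence from upstream of wt1a, a transcription factor gene of the epicardium, the outer layer of the heart. The fish were 3 to 9 months old and untreated, and 3 to 5 hearts were pooled per sample. Each of 4 pools gave 1 library labelled wt1a:GFP-negative and 1 labelled wt1a:GFP-positive, 8 libraries in all, so the design compares the labelled sorts within pools. Nothing in the labels distinguishes the fish or handling of pools 1 and 2 from those of pools 3 and 4.

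The libraries stood apart by pool number and not by labelled sort. wt1a (listed as WT1) was at 2.42, 1.15, 1.42 and 2.59 TPM in pools 1 and 2, against 107, 71.3, 44.3 and 39.5 TPM in pools 3 and 4, and was higher in the positive-labelled library in 1 of 4 pools. Libraries are therefore called here by their label. Whether labels or columns were exchanged between libraries was not tested, and the meaning of every difference between sorts or pools rests on them. Fibroblast markers summed to 149 to 271 TPM in pools 1 and 2, against 3808 to 8734 TPM in pools 3 and 4, with 8 of 8 called higher in pools 3 and 4. The 6 epicardial markers summed to 58.9 to 151 and 224 to 460 TPM, with 4 called higher and 2 (ALDH1A2 and TBX5) lower. ALDH1A2 made up most of the epicardial sum in pools 1 and 2, at 43.0, 38.3, 125 and 65.1 TPM, against 1.60 to 5.55 TPM in pools 3 and 4. None of these fibroblast and epicardial markers was at 0 in any library. Cardiomyocyte markers went from 21234 to 30146 TPM down to 1521 to 3822 TPM (7 of 7 tested called lower), and endothelial markers from 173 to 323 TPM down to 18.7 to 38.1 TPM (6 of 6 called lower). Each library held 12332 to 14783 genes at 1 TPM or more. Mitochondrial identifiers held 10.3% to 14.2% of the TPM in pools 1 and 2, against 2.13% to 5.06% in pools 3 and 4. The depth is unknown because TPM keeps no read total.

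Values below are TPM as deposited, in the order negative-labelled then positive-labelled library of each pool, pool by pool. Differences are log2 differences of pools 3 and 4 minus pools 1 and 2, on the scale log2(scaled TPM + 1), where the scaling sets the typical gene equal between libraries. They were fitted with limma on 4 pool means, each pool of hearts being 1 replicate, and a gene was called at an adjusted p under 0.05 over all 13877 genes tested. The division of pools was chosen with results of these data known, so its p-values are descriptive. The choice of scale matters: with TPM as deposited, the median of all genes moved by 0.84 on the log2 scale, and the split of called genes went from 1109 higher and 1691 lower to 3667 higher and 866 lower. As deposited, 33.4% of all genes tested lay wholly higher in pools 3 and 4, against 12.0% after scaling.

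**Figure D1:**
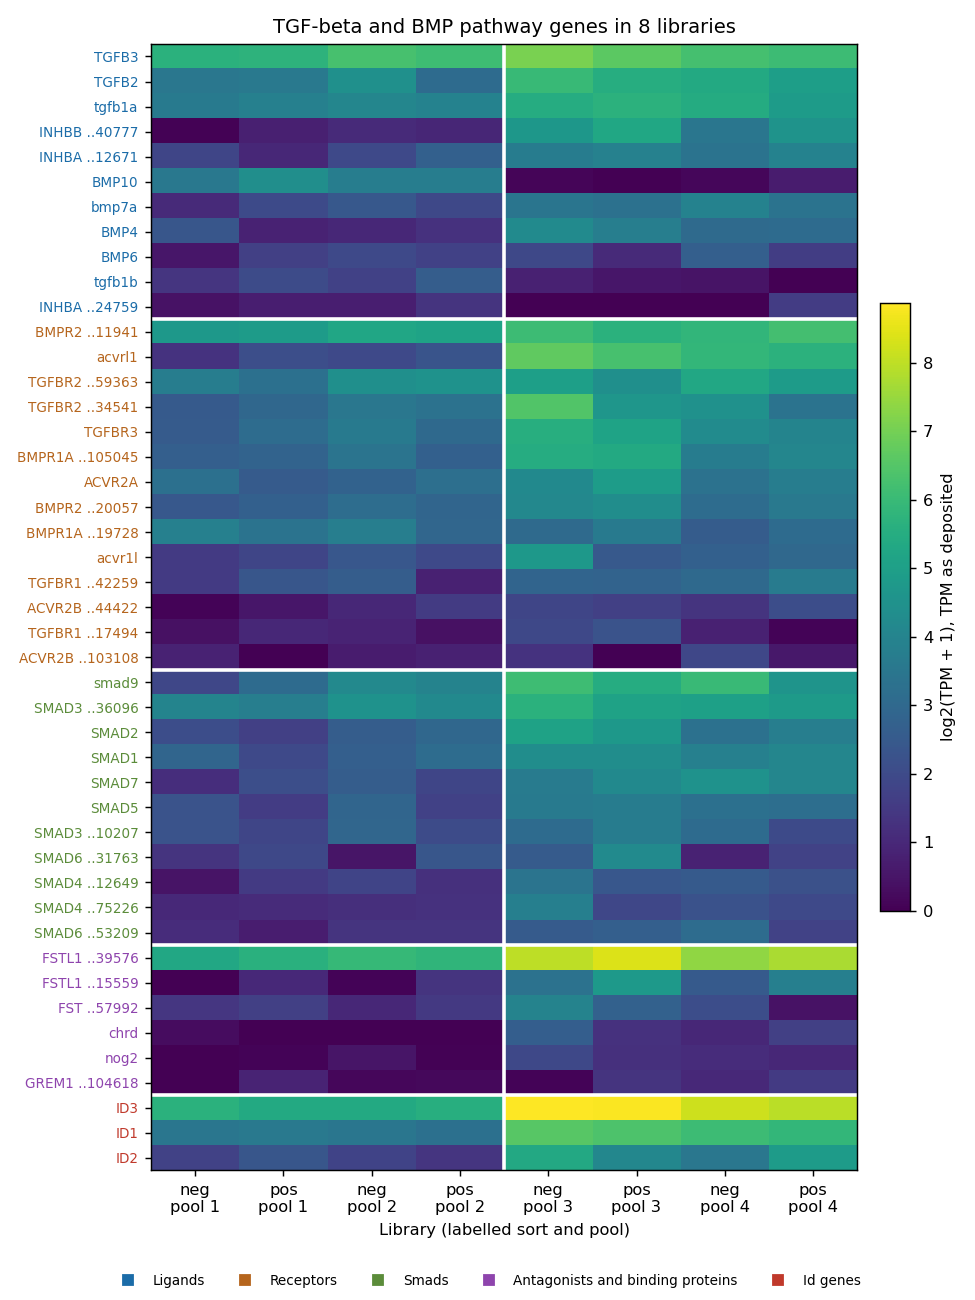
Level of the 45 kept identifiers in each of the 8 libraries, as log2(TPM + 1) of the deposited values, ordered by role; identifiers are shortened to their last digits where a symbol occurs more than once. ID3 and FSTL1 (ENSDARG00000039576) are among the highest members, and BMP10 is the ligand that is high in the 4 libraries of pools 1 and 2 and near 0 in pools 3 and 4.

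Of the 45 kept identifiers 39 reached the level needed for testing (1 TPM in at least 4 libraries), and 10 of these were called between pools, 7 higher and 3 lower in pools 3 and 4. That is 25.6% of members, against 20.2% of all genes tested (7.99% higher and 12.2% lower). The higher members were INHBB, acvrl1, both FSTL1 identifiers and ID1, ID2 and ID3, and the lower ones were BMP10, tgfb1b and BMPR1A (ENSDARG00000019728). The median difference of the 39 members was 0.58, against -0.03 for all genes. tgfb1b and BMP10 reached the tested level only through pools 1 and 2, so a difference was built into their inclusion. INHBB and FSTL1 (ENSDARG00000015559) reached 1 TPM in 5 and 6 libraries. Without pools 3 and 4 they would have missed the tested level, so their inclusion also leaned on the pools where they were high. The same holds for uncalled members that enter the median above. These are BMP4, BMP6, INHBA (ENSDARG00000012671), TGFBR1 (ENSDARG00000042259), ACVR2B (ENSDARG00000044422), SMAD4 (ENSDARG00000012649), both SMAD6 identifiers and FST (ENSDARG00000057992). Of these only BMP6 had a negative difference. In these bulk samples, fewer cells of a type and less RNA per cell cannot be told apart. The pools also differ in the marker sums above, whose part in any member's difference was not tested.

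Among the ligands, 1 of 10 tested identifiers was called higher and 2 lower, against 7.99% and 12.2% of all genes tested. BMP10, a cardiac BMP that in mammals is also a ligand of the receptor encoded by Acvrl1, was listed at 10.8, 19.6, 12.4 and 12.6 TPM in pools 1 and 2, against 0.09, 0, 0.12 and 0.58 TPM in pools 3 and 4. Every library of pools 1 and 2 lay above every library of pools 3 and 4, and the log2 difference was -4.18 (SE 0.40, adjusted p = 0.000648). With values this near 0 its size is set by the pseudocount: it was -6.60 with a pseudocount of 0.1 and -2.27 with 5, and BMP10 was called under both. Cardiomyocyte markers, among the highest in these libraries, differed in the same direction, and 1 of the 8 was at 0 in at least 1 library. So did the 6 endothelial markers and the 3 tested erythrocyte markers, all called lower, and no cellular source of BMP10 was tested. The activin B subunit INHBB (ENSDARG00000040777) stood at 0.04, 0.70, 1.06 and 0.94 TPM in pools 1 and 2, against 24.8, 37.9, 10.04 and 22.5 TPM in pools 3 and 4. All 4 libraries of pools 3 and 4 were above the rest, with a log2 difference of 3.08 (SE 0.42, adjusted p = 0.00255), which was 4.21 with a pseudocount of 0.1 and 1.75 with 5. Without pool 1 this call was lost (adjusted p = 0.0507). The subunit of activin A, INHBA (ENSDARG00000012671), was at 2.58, 0.96, 2.84 and 5.65 TPM in pools 1 and 2, against 12.1, 13.8, 9.29 and 14.4 TPM in pools 3 and 4, again without overlap as deposited, but its difference of 0.97 (SE 0.42, adjusted p = 0.153) was not called. After scaling its groups overlapped.

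Of the 4 TGF-beta ligand identifiers, tgfb1b alone was called. It was at 1.61, 3.05, 2.29 and 5.17 TPM in pools 1 and 2, against 0.76, 0.46, 0.37 and 0 TPM in pools 3 and 4, lower in every library of pools 3 and 4, with a log2 difference of -2.04 (SE 0.40, adjusted p = 0.0113), or -3.80 with a pseudocount of 0.1 and -0.82 with 5. Its paralog tgfb1a was much more abundant, at 11.6, 13.4, 15.6 and 14.2 TPM in pools 1 and 2, against 44.4, 51.4, 42.8 and 28.5 TPM in pools 3 and 4. Its groups did not overlap as deposited or after scaling, where they lay at 18.1 to 21.9 and 23.6 to 35.3. The scaled difference of 0.48 (SE 0.23, adjusted p = 0.195) was not called. TGFB2 was at 10.3, 11.04, 20.7 and 7.58 TPM in pools 1 and 2, against 61.5, 45.1, 41.3 and 30.6 TPM in pools 3 and 4. Its scaled difference of 0.78 (SE 0.23, adjusted p = 0.0536) missed the threshold and passed it under 4 alternatives. Its scaled values narrowly did not overlap, at most 25.3 in pools 1 and 2 and at least 25.5 in pools 3 and 4. TGFB3 was the most abundant ligand by TPM in all 8 libraries, at 50.1, 52.0, 77.8 and 68.4 TPM in pools 1 and 2, against 135, 97.6, 74.3 and 66.3 TPM in pools 3 and 4. Its groups overlapped as deposited. After scaling they did not, at 77.9 to 99.5 in pools 1 and 2 against 55.2 to 71.8 in pools 3 and 4. Its difference was -0.52 (SE 0.20, adjusted p = 0.122) after scaling, which was not called, and 0.55 as deposited.

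Within a library, the ratio of TGFB2 to TGFB3 does not depend on the scaling. It lay between 0.111 and 0.266 in pools 1 and 2, against values between 0.454 and 0.556 in pools 3 and 4. For tgfb1a over tgfb1b the corresponding ranges were 2.74 to 7.21 and 58.5 to 116, the latter over 3 libraries because tgfb1b was listed at 0 in the positive-labelled library of pool 4. These ratios were chosen after the values were seen and carry no test.

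The remaining BMP ligands were lower in level. BMP4 was at 4.17, 0.79, 0.98 and 1.42 TPM in pools 1 and 2, against 17.8, 12.9, 7.41 and 7.64 TPM in pools 3 and 4, where the lowest library of pools 3 and 4 exceeded the highest of pools 1 and 2, and its scaled difference was 1.35 (SE 0.42, adjusted p = 0.0664). The scaled values of BMP4 overlapped. bmp7a ranged over 1.09 to 4.40 TPM in pools 1 and 2, against 8.96 to 14.1 TPM in pools 3 and 4, with a difference of 0.79 (SE 0.42, adjusted p = 0.247). Its scaled values overlapped too. BMP6 ranged over 0.45 to 2.88 TPM in pools 1 and 2, against 1.08 to 5.40 TPM in pools 3 and 4. A further INHBA identifier (ENSDARG00000024759) was at 0 to 2.01 TPM and was not tested. Below the level for inclusion were both BMP2 identifiers (at most 0.32 TPM), BMP5 (at most 0.04 TPM) and a second INHBB identifier (ENSDARG00000103892, listed at 0 throughout).

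**Figure D2:**
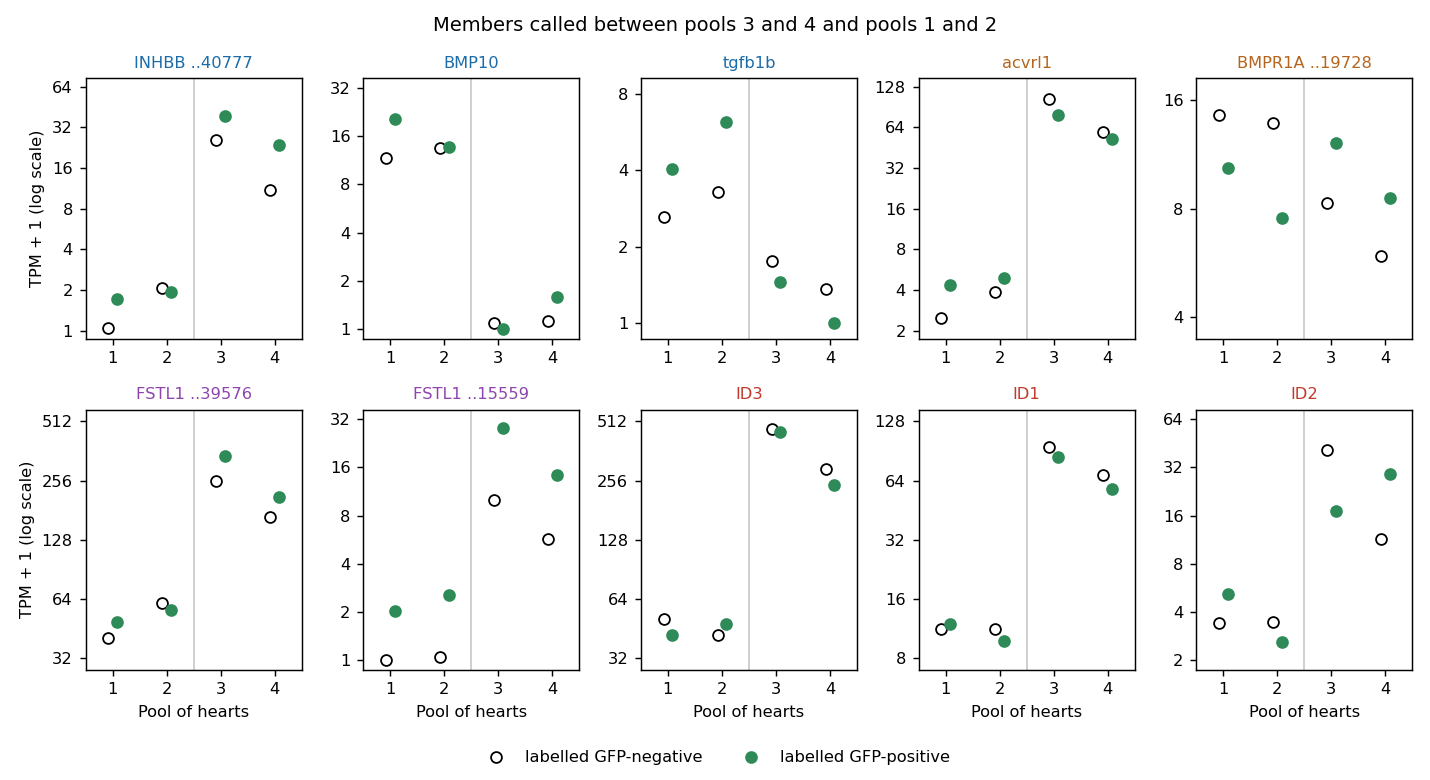
TPM + 1 as deposited on a log axis for the 10 members called between pools, 1 panel each, with the 4 pools on the x axis; open circles are the libraries labelled GFP-negative and green circles those labelled GFP-positive. BMP10 lies between 10.8 and 19.6 TPM in pools 1 and 2 and at or below 0.58 TPM in pools 3 and 4, ID3 between 41.0 and 49.2 and then between 243 and 466 TPM, and BMPR1A (ENSDARG00000019728) overlaps between the pools on this deposited scale.

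Of 12 tested receptor identifiers, 1 was called higher and 1 lower (16.7% called, against 20.2% of all genes tested). acvrl1, a type I receptor known in mammals and zebrafish for its role in blood vessel endothelium, had the largest positive difference of the 39 tested members. It was at 1.48, 3.36, 2.86 and 3.89 TPM in pools 1 and 2, against 102, 77.8, 57.6 and 51.0 TPM in pools 3 and 4, so that the lowest library of pools 3 and 4 was far above the highest of pools 1 and 2. The log2 difference was 3.28 (SE 0.27, adjusted p = 0.000353), with a 95% interval of 2.65 to 3.90, and it was 3.55 with a pseudocount of 0.1 and 2.53 with 5. The 6 endothelial markers were called in the opposite direction, with 1 of them at 0 in at least 1 library, and kdrl, an endothelial receptor gene, was at 39.1, 29.4, 56.9 and 32.6 TPM in pools 1 and 2, against 1.78, 3.42, 1.88 and 2.92 TPM in pools 3 and 4. The 8 fibroblast markers were called in the same direction as acvrl1, and no cellular source was tested. BMPR2 (ENSDARG00000011941), the most abundant type II BMP receptor here, was at 25.6, 28.4, 36.9 and 34.4 TPM in pools 1 and 2, against 66.4, 49.8, 56.2 and 74.2 TPM in pools 3 and 4, and its difference of -0.11 (SE 0.27, adjusted p = 0.831) was not called. Relative to it, acvrl1 went from a ratio of 0.0579 to 0.118 in pools 1 and 2 to 0.687 to 1.56 in pools 3 and 4.

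The 2 identifiers of the BMP type I receptor BMPR1A gave differences of opposite sign, of which 1 was called. ENSDARG00000019728 was at 13.6, 9.39, 12.8 and 6.55 TPM in pools 1 and 2, against 7.31, 11.2, 4.92 and 7.56 TPM in pools 3 and 4. These deposited values overlap, and the call rests on the scaling: the log2 difference was -1.37 (SE 0.33, adjusted p = 0.0247) after scaling and -0.41 with TPM as deposited (adjusted p = 0.490). The other identifier, ENSDARG00000105045, was at 5.41, 6.01, 9.66 and 5.66 TPM in pools 1 and 2, against 43.6, 41.0, 12.2 and 15.7 TPM in pools 3 and 4. It was not called, at 0.75 (SE 0.38, adjusted p = 0.215), although every deposited value of pools 3 and 4 exceeded those of pools 1 and 2. After scaling, the values of this identifier overlapped. The second over the first gave a ratio of 0.399 to 0.864 in pools 1 and 2, against 2.08 to 5.96 in pools 3 and 4, independent of scaling and without overlap. Like the ratio of acvrl1 to BMPR2, it was chosen after the values were seen and carries no test. Between the pools, the paralog ratios of TGFBR2, BMPR2 and SMAD3 overlapped, while that of FSTL1 narrowly did not (undefined in 1 library). FSTL1 (ENSDARG00000039576 over ENSDARG00000015559) gave 35.7 to 1205 in pools 1 and 2, against 12.5 to 35.0 in pools 3 and 4. Its divisor was near 0 in pools 1 and 2, at 0 to 1.54 TPM. How RSEM divided reads between such paralogs is not known from the table, so the split is uncertain.

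No identifier of TGFBR1, TGFBR2 or TGFBR3 was called. TGFBR2 (ENSDARG00000034541) was at 4.73, 6.70, 10.5 and 9.03 TPM in pools 1 and 2, against 86.4, 24.2, 21.6 and 9.46 TPM in pools 3 and 4. The negative-labelled library of pool 3 was the highest, and the positive-labelled library of pool 4 lay within the range of pools 1 and 2. Its paralog ENSDARG00000059363 ranged over 8.78 to 22.2 TPM in pools 1 and 2, against 20.5 to 38.5 TPM in pools 3 and 4. TGFBR3, the betaglycan co-receptor, ranged over 4.81 to 11.4 TPM in pools 1 and 2, against 15.1 to 46.2 TPM in pools 3 and 4, with a difference of 0.65 (SE 0.32, adjusted p = 0.210). TGFBR1 (ENSDARG00000042259) was at 0.74 to 11.9 TPM across the 8 libraries. acvr1l, a type I receptor known from zebrafish BMP signalling, was at 1.85, 2.64, 4.29 and 2.88 TPM in pools 1 and 2, against 25.3, 4.57, 5.65 and 6.97 TPM in pools 3 and 4, where the negative-labelled library of pool 3 stood above all others. The activin type II receptor ACVR2A ranged over 4.89 to 8.56 TPM in pools 1 and 2, against 9.22 to 28.6 TPM in pools 3 and 4, and BMPR2 (ENSDARG00000020057) over 4.42 to 8.07 TPM in pools 1 and 2, against 7.68 to 19.2 TPM in pools 3 and 4. Scaled differences of ACVR2A and this BMPR2 identifier were 0.09 (SE 0.31, adjusted p = 0.878) and 0.02 (SE 0.32, adjusted p = 0.979). After scaling, the values of both overlapped between the pools, as did those of TGFBR3 and acvr1l. ACVR2B (ENSDARG00000044422) was at 0.06 to 3.28 TPM, and the identifiers TGFBR1 (ENSDARG00000017494) and ACVR2B (ENSDARG00000103108) were kept but too low to test, at 0.05 to 3.81 TPM and 0 to 2.71 TPM. These untested identifiers reached 1 TPM in pools 3 and 4 alone and were kept through those pools. bmpr1ba reached 1 TPM in 1 library, at 2.17 TPM, and so lay just outside the rule, while the INHBA identifier with 1.51 and 2.01 TPM in its highest libraries lay just inside.

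None of the 11 Smad identifiers was called between pools, against 20.2% of all genes tested, and the lowest adjusted p among them was 0.0668. Their median difference was 0.58, and 9 of 11 were positive. Among these, SMAD4 (ENSDARG00000012649) and both SMAD6 identifiers reached the tested level only with pools 3 and 4 counted. The highest mean TPM was that of smad9, a BMP receptor Smad, at 2.73, 7.67, 17.0 and 14.6 TPM in pools 1 and 2, against 68.9, 43.9, 63.5 and 23.1 TPM in pools 3 and 4. All libraries of pools 3 and 4 were above those of pools 1 and 2 as deposited, and the scaled difference was 1.26 (SE 0.43, adjusted p = 0.0882). The scaled values of smad9 overlapped. SMAD3 (ENSDARG00000036096), a receptor Smad for TGF-beta and activin, was at 14.8, 12.9, 22.1 and 17.4 TPM in pools 1 and 2, against 50.3, 33.2, 31.8 and 27.3 TPM in pools 3 and 4. After scaling its difference was -0.01 (SE 0.23, adjusted p = 0.983), with a 95% interval of -0.56 to 0.54, and as deposited it was 1.03.

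SMAD7, which blocks type I receptors and is itself a target of the pathway, was at 1.22, 3.40, 5.15 and 2.58 TPM in pools 1 and 2, against 11.8, 17.7, 21.8 and 15.7 TPM in pools 3 and 4. Its values did not overlap as deposited or, narrowly, after scaling (at most 6.27 in pools 1 and 2, at least 6.28 in pools 3 and 4). Its scaled difference was 1.28 (SE 0.40, adjusted p = 0.0668). SMAD2 ranged over 2.19 to 6.85 TPM in pools 1 and 2, against 8.94 to 33.5 TPM in pools 3 and 4, with a difference of 0.94 (SE 0.42, adjusted p = 0.173). Of the other BMP receptor Smads, SMAD1 ranged over 2.87 to 7.75 TPM in pools 1 and 2, against 13.6 to 19.6 TPM in pools 3 and 4. SMAD5 ranged over 1.97 to 6.44 TPM in pools 1 and 2, against 8.15 to 12.1 TPM in pools 3 and 4. Scaled differences of SMAD1 and SMAD5 were 0.53 (SE 0.30, adjusted p = 0.279) and 0.43 (SE 0.34, adjusted p = 0.435). The scaled values of SMAD1, SMAD2 and SMAD5 overlapped between the pools. The shared partner SMAD4 was low in both its identifiers, at 0.38 to 9.74 TPM (ENSDARG00000012649) and 1.04 to 13.2 TPM (ENSDARG00000075226). The inhibitory SMAD6 was at 0.42 to 18.1 TPM (ENSDARG00000031763) and 0.65 to 7.84 TPM (ENSDARG00000053209), and the second SMAD3 identifier (ENSDARG00000010207) at 2.60 to 12.1 TPM.

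Among antagonists and binding proteins, 2 of 3 tested identifiers were called higher, against 7.99% of all genes tested, and both were FSTL1. FSTL1 encodes a secreted glycoprotein related in sequence to follistatin and known in mice from the epicardium. ENSDARG00000039576 was at 39.3, 48.0, 60.3 and 55.0 TPM in pools 1 and 2, against 254, 339, 166 and 211 TPM in pools 3 and 4, without overlap, and its log2 difference was 1.13 (SE 0.19, adjusted p = 0.00571). ENSDARG00000015559 was at 0, 1.04, 0.05 and 1.54 TPM in pools 1 and 2, against 9.07, 27.1, 4.75 and 13.3 TPM in pools 3 and 4, also without overlap, with a difference of 2.34 (SE 0.41, adjusted p = 0.00718), or 3.93 with a pseudocount of 0.1 and 1.16 with 5. FST (ENSDARG00000057992), the activin-binding follistatin, was at 1.66, 2.21, 0.96 and 1.75 TPM in pools 1 and 2, against 14.5, 5.72, 3.31 and 0.34 TPM in pools 3 and 4, and its groups overlapped; the difference was 0.14 (SE 0.58, adjusted p = 0.899). The BMP antagonists proper among the members were scarce. This does not extend to the further pathway genes described below. There, SOSTDC1 (ENSDARG00000068892) was at 3.45, 3.76, 0.63 and 1.68 TPM in pools 1 and 2, against 117, 71.8, 23.3 and 40.9 TPM in pools 3 and 4. A second SOSTDC1 identifier was listed at 0 throughout. BMPER ranged over 3.81 to 6.22 TPM in pools 1 and 2, against 14.6 to 26.8 TPM in pools 3 and 4. For SOSTDC1 and BMPER only deposited values are given here, and no difference after scaling. nog2 (noggin family) was at 0 to 2.78 TPM, chrd (chordin) at 0 to 5.27 TPM and GREM1 (gremlin, ENSDARG00000104618) at 0 to 1.84 TPM, each too low to test. nog2, chrd and this GREM1 identifier reached 1 TPM in pools 3 and 4 alone and were kept through those pools. A second FST identifier (ENSDARG00000052846) reached at most 0.98 TPM, and a second GREM1 identifier was listed at 0 throughout.

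All 3 Id genes among the members were called higher in pools 3 and 4, against 7.99% of all genes tested. They encode helix-loop-helix proteins without a DNA-binding region, which hold other such factors inactive. ID3, the member with the highest mean TPM, was at 49.2, 41.0, 41.0 and 46.5 TPM in pools 1 and 2, against 466, 449, 290 and 243 TPM in pools 3 and 4, with a log2 difference of 1.87 (SE 0.20, adjusted p = 0.00102) and a 3.67-fold ratio. ID1 was at 10.2, 10.9, 10.3 and 8.72 TPM in pools 1 and 2, against 93.8, 83.3, 67.2 and 57 TPM in pools 3 and 4, with a difference of 1.73 (SE 0.24, adjusted p = 0.00293). ID2 was at 2.40, 4.17, 2.45 and 1.59 TPM in pools 1 and 2, against 40.3, 16.1, 10.4 and 28.1 TPM in pools 3 and 4, with a difference of 1.71 (SE 0.37, adjusted p = 0.0170). In each of the 3, every library of pools 3 and 4 exceeded every library of pools 1 and 2, and the ratio of ID3 to ID1 overlapped, at 3.75 to 5.33 in pools 1 and 2, against 4.27 to 5.39 in pools 3 and 4. Of the further pathway genes, id2b was at 4.11, 3.54, 3.56 and 9.86 TPM in pools 1 and 2, against 16.5, 21.6, 14.4 and 14.3 TPM in pools 3 and 4. ID4 was at 0 to 0.87 TPM. For id2b and ID4 only deposited values are given here.

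**Figure D3:**
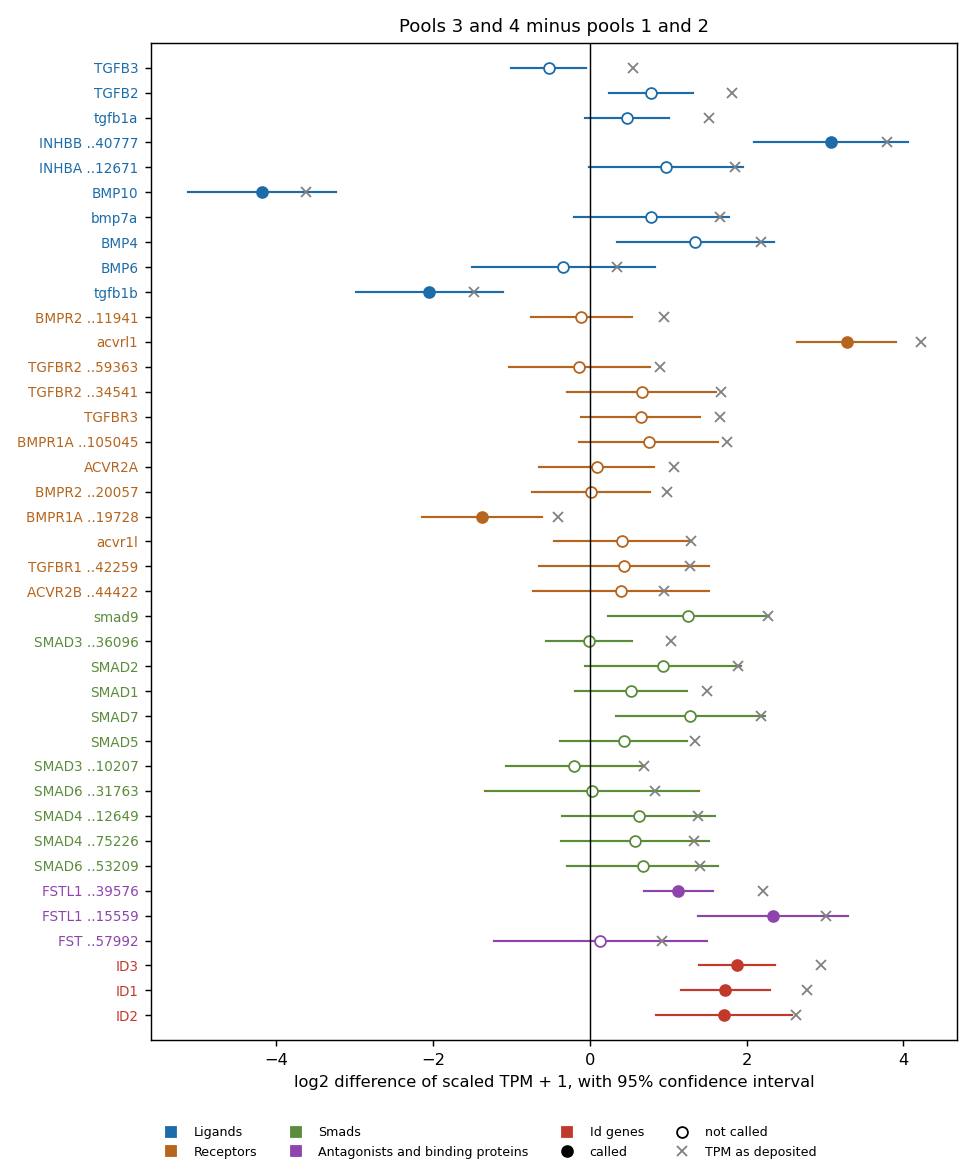
Log2 difference of pools 3 and 4 minus pools 1 and 2 for the 39 tested members, by role, with 95% intervals from limma on 4 pool means; filled circles are called and crosses give the same difference with TPM as deposited. acvrl1 and INHBB lie farthest to the right, at 3.28 and 3.08, BMP10 farthest to the left at -4.18, and the crosses lie to the right of the circles.

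**Figure D4:**
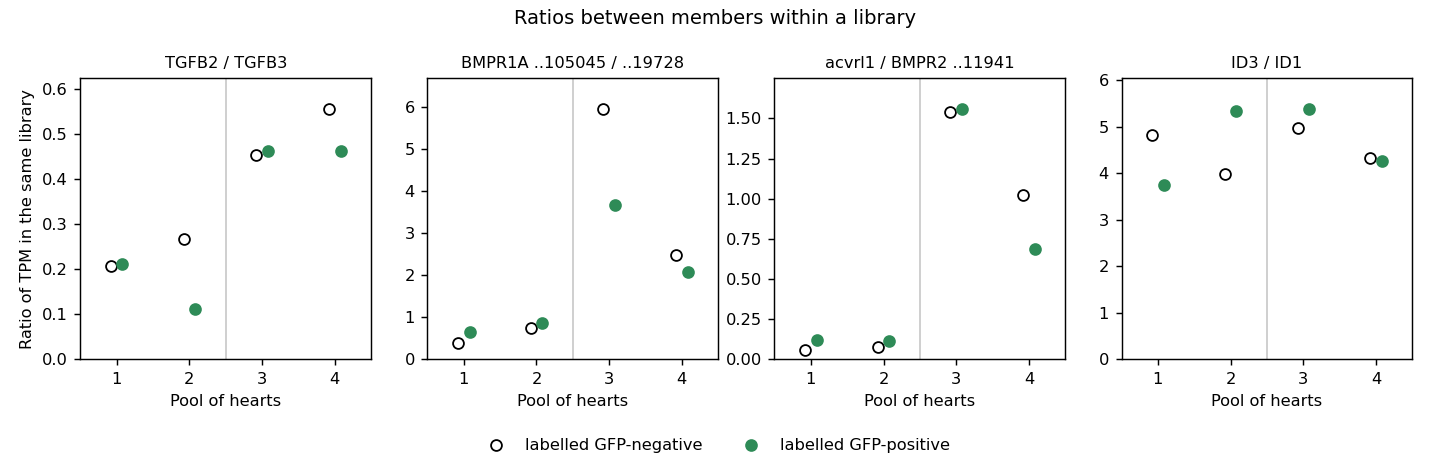
Ratios of 2 members in the same library (y axes, linear and from 0) for each pool of hearts (x axes), which do not depend on the scaling; open circles are GFP-negative-labelled and green circles GFP-positive-labelled libraries of pools 1 to 4. TGFB2 over TGFB3, the 2 BMPR1A identifiers and acvrl1 over BMPR2 separate pools 1 and 2 from pools 3 and 4, whereas ID3 over ID1 overlaps. The ratios shown were chosen after the values were seen.

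BMP10, acvrl1 and ID3 were called under all 17 alternatives tried. Without pool 1 or without pool 2, 4 of the 10 calls remained, with ID1 in addition to these 3 in the first case and INHBB in the second. Without the negative-labelled library of pool 3, ID2 and BMPR1A (ENSDARG00000019728) were lost. Both of these and tgfb1b also lost their call without the filter on low values, and in 1 labelled sort alone the calls of tgfb1b, BMPR1A (ENSDARG00000019728) and FSTL1 (ENSDARG00000039576) were lost, while ID2 lost it in each sort alone. Scaled values of 10 tested members lay wholly above in pools 3 and 4 and those of 4 wholly below, against 12.0% and 14.6% of all genes tested; as deposited, 27 lay above and 2 below, against 33.4% and 6.26%. For 6 members (TGFB3, BMP6, both SMAD3 identifiers, BMPR2 ENSDARG00000011941 and TGFBR2 ENSDARG00000059363) the direction itself differed between the 2 scales, and none of these was called.

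The labelled sort, which is the comparison of the study's design, was fitted over the 8 libraries with the pool as a block. No member of 39 was called, and no gene of 13877 (0%) was, in limma. At an unadjusted p under 0.05 there were 2 members and 767 genes, and the fit without the block also called 0. The median of the members was 0.03 on the log2 scale, positive minus negative, with 21 positive and 18 negative, and 34 of 39 were smaller than 0.5 in size.

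The member with the lowest p was FSTL1 (ENSDARG00000015559), at 0, 0.05, 9.07 and 4.75 TPM in the negative-labelled libraries of pools 1 to 4 and 1.04, 1.54, 27.1 and 13.3 TPM in the positive-labelled ones. It was higher in the positive-labelled library in all 4 pools, with a log2 difference of 1.48 (SE 0.34, unadjusted p = 0.00286, adjusted p = 0.850). SMAD6 (ENSDARG00000031763) was at 1.5, 0.42, 4.85 and 0.81 TPM in the negative-labelled libraries of pools 1 to 4 and 2.76, 4.13, 18.1 and 2.36 TPM in the positive-labelled ones. It too was higher in the positive-labelled library of each pool, at 1.38 (SE 0.41, unadjusted p = 0.0106, adjusted p = 0.850). INHBB (ENSDARG00000040777) and FSTL1 (ENSDARG00000039576) were also higher in 4 of 4 pools after scaling, though in 3 of 4 as deposited, with differences of 0.73 (SE 0.35, unadjusted p = 0.0717, adjusted p = 0.850) and 0.36 (SE 0.17, unadjusted p = 0.0688, adjusted p = 0.850). SMAD3 (ENSDARG00000036096) was lower in the positive-labelled library of each pool, at -0.20 (SE 0.20, unadjusted p = 0.360, adjusted p = 0.900). Across all genes tested, 6.81% were higher and 7.27% lower in all 4 pools, against 4 and 1 of the 39 members. Fibroblast markers summed higher in the positive-labelled library in pools 1, 2 and 4 and lower in pool 3, and their part in these values was not tested.

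**Figure D5:**
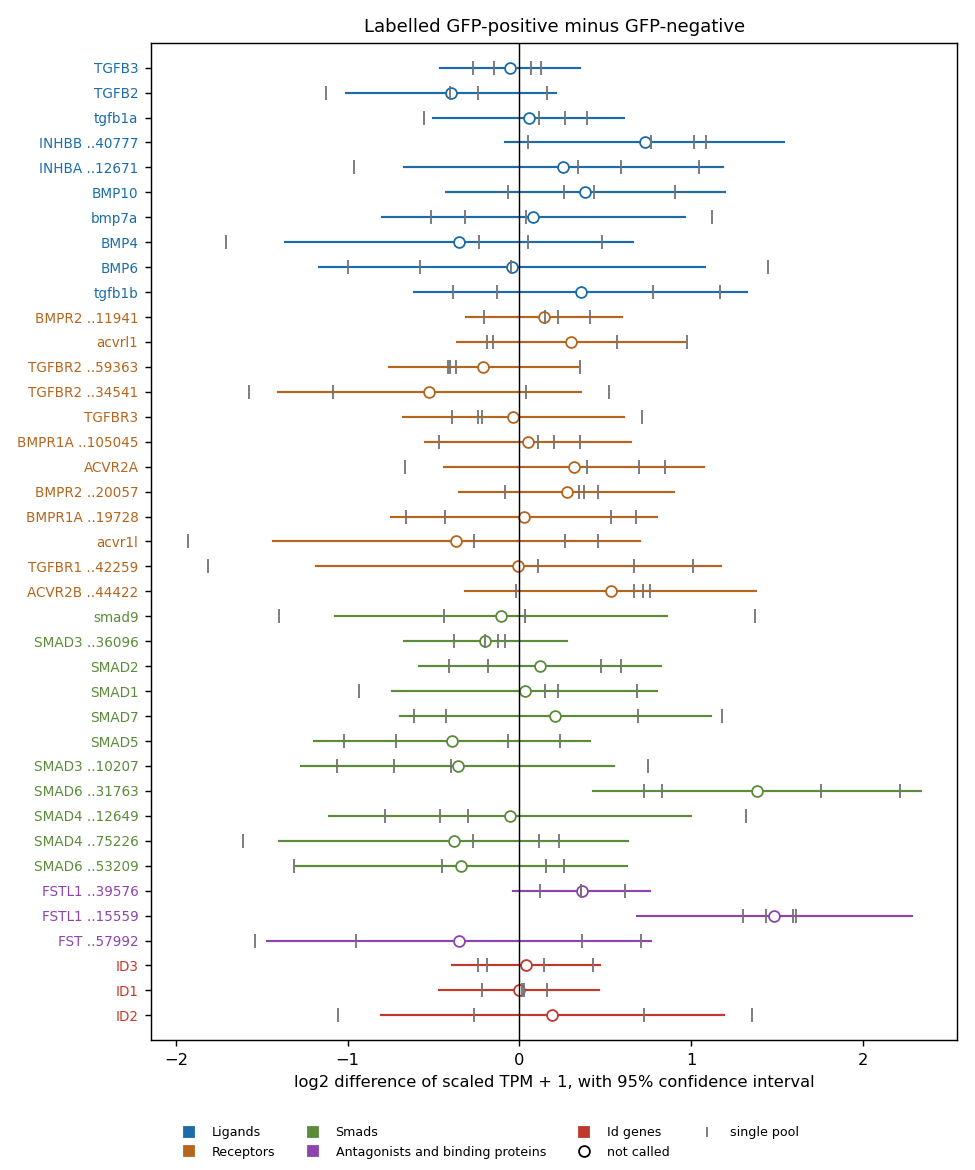
Log2 difference of the libraries labelled GFP-positive minus those labelled GFP-negative for the 39 tested members, with 95% intervals from limma with pool as a block; small ticks mark the 4 single pools. Intervals cross 0 for all members but FSTL1 (ENSDARG00000015559) and SMAD6 (ENSDARG00000031763), which lie farthest to the right, at 1.48 and 1.38, and no member was called.

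The sort difference was also compared between pools 1 and 2 and pools 3 and 4, with 2 within-pool differences on each side. No member of 39 and no gene of 13877 (0%) was called in limma, with 2 members and 789 genes at an unadjusted p under 0.05. These were TGFBR2 (ENSDARG00000034541), at -1.61 (SE 0.51, adjusted p = 0.872), and smad9, at -1.62 (SE 0.62, adjusted p = 0.872). In TGFBR2 the negative-labelled library of pool 3 stood at 86.4 TPM and the positive-labelled one at 24.2 TPM.

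The rest of the pathway was read from a list of 106 further genes, of which 96 were matched, to 88 identifiers. Of 51 tested identifiers, 8 were called higher and 4 lower in pools 3 and 4, or 23.5% against 20.2% of all genes, and the median difference was 0.31. DCN (decorin, a matrix proteoglycan that binds TGF-beta) was at 29.0, 64.4, 31.9 and 53.3 TPM in pools 1 and 2, against 1394, 1014, 681 and 679 TPM in pools 3 and 4. The difference was 3.30 (SE 0.21, adjusted p = 0.000215), and DCN is itself widely used as a fibroblast gene. FSTL3, a follistatin relative that binds activins, was at 6.78, 1.57, 2.88 and 1.71 TPM in pools 1 and 2, against 204, 188, 133 and 42.9 TPM in pools 3 and 4, with a difference of 4.07 (SE 0.37, adjusted p = 0.000518). CCN2, a matrix-associated protein and known TGF-beta target, was at 6.69, 24.9, 14.3 and 27.3 TPM in pools 1 and 2, against 65.7, 98.1, 100 and 138 TPM in pools 3 and 4, with a difference of 1.47 (SE 0.36, adjusted p = 0.0282), and its scaled values overlapped.

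On the lower side, HIPK2, a nuclear kinase, was at 8.63, 16.2, 22.5 and 18.1 TPM in pools 1 and 2, against 16.6, 10.3, 8.29 and 7.90 TPM in pools 3 and 4. NEDD4L, a ubiquitin ligase acting on SMAD2 and SMAD3 in mammals, was at 10.2, 10.4, 16.4 and 10.8 TPM in pools 1 and 2, against 17.1, 3.75, 4.38 and 8.41 TPM in pools 3 and 4, and bmp16, a fish BMP ligand, at 7.87, 4.50, 8.72 and 6.27 TPM in pools 1 and 2, against 3.26, 5.41, 6.36 and 3.19 TPM in pools 3 and 4. All 3 overlap between the pools as deposited, where their differences were -0.54, -0.65 and -0.51, and were called only after scaling, at -1.55 (SE 0.30, adjusted p = 0.0107), -1.61 (SE 0.29, adjusted p = 0.00853) and -1.40 (SE 0.37, adjusted p = 0.0351). Of genes singled out after their values were seen, LTBP1, which anchors latent TGF-beta in the matrix, was at 0.96, 4.35, 3.76 and 3.22 TPM in pools 1 and 2, against 77.0, 118, 44.8 and 84.2 TPM in pools 3 and 4, and its difference was 3.41 (SE 0.27, adjusted p = 0.000321). tgfb5, a further TGF-beta ligand gene, was at 1.69, 2.54, 2.60 and 2.09 TPM in pools 1 and 2, against 27.1, 56.3, 34.6 and 29.1 TPM in pools 3 and 4, with 2.58 (SE 0.30, adjusted p = 0.00125). LTBP1, tgfb5, DCN and FSTL3 thus had no overlap between the pools on either scale.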

How the data were processed

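RNA from sorted ventricular cells was sequenced as single reads of 60 bases from libraries made with 0.2 to 0.6 ng of total RNA, per the labels' protocols, which also name cells carrying mCherry and a second library kit. Per the submitters' processing notes, reads passed through CASAVA 1.8.2, cutadapt and RSEM 1.2.25 on build Zv9. For cutadapt's version, the aligner, the annotation and any use of strand, the sources used here give nothing. The values deposited by the authors are TPM: each column sums to 1000000 within rounding, so depth is unknown and counting intervals could not be given. Reads of near-identical paralogs can be split between copies.

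Members, roles and lists were chosen with earlier results of these data known. Symbols came from a table of gene names (24 identifiers matched by symbol and 30 without the paralog letter). Scaling used the trimmed mean of log ratios without weights (30% of ratios and 5% of abundances trimmed) over 13877 genes, those at 1 TPM or more in 4 or more libraries, and the same genes were tested. limma 3.58.1 in R 4.3.3 was fitted to log2(scaled TPM + 1), with a mean-dependent prior variance and Benjamini-Hochberg adjustment over all genes tested. Differences of low genes come out too small on this scale. The 3 fits were the labelled sort with pool as a block, pools 3 and 4 against pools 1 and 2 on 4 pool means, and the change of the sort difference between these pools. All tests were two-sided. P-values of the fit on pool means rest on the spread between pools of hearts. Those of the fits of the labelled sort and of its change rest on how the within-pool sort differences vary from pool to pool. Python 3.11.15, pandas 2.3.3 and matplotlib 3.10.9 were also used, and the fits were tested on simulated data. There, a log2 change of 1 in 200 genes was recovered in 0.1% of cases by the pool fit and by the sort fit. With 3000 genes changed, recovery was 10.0% and 23.7%. A log2 change of 2 in 200 genes was recovered in 53.4% and 73.4%. An uncalled gene is therefore not shown to be unchanged.

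The sorts are paired per the series' design text, and pairs follow from the labelled pool. Deviations from the sort means correlated across genes at 0.492, 0.536, 0.447 and 0.403 for same-numbered libraries of pools 1 to 4. Other library pairs within pools 1 and 2 (0.551 and 0.474) and within pools 3 and 4 (0.437 and 0.382) were similar, and the rest were negative. The highest correlation between 2 libraries was 0.928, and none was treated as a repeat of another.

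Every kept member is described; 1 member below the inclusion level is not reported here. Full statistics are given for called members and, where a role had fewer than 2 called, for its 2 most abundant uncalled members, and other values are added for context. Of the other pathway genes, up to 3 called ones with the highest mean TPM per direction are named. SOSTDC1, BMPER, id2b, ID4, LTBP1 and tgfb5 were added after their values were seen. Alternatives covered scaling, low-value filters, pseudocounts, variance estimation, leaving out pools or libraries, the block, and each labelled sort alone.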

Additional observations from a re-analysis of the deposited data

Results flagged for a closer look

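Among 180 groups of 4 libraries checked, 12 held a member value far from the other 3, where a nominal rate of 1 in 20 would give 9. That rate may not hold here, since groups of 1 labelled sort mix pools 1 and 2 with pools 3 and 4. Groups by sort and by pool also share libraries. The negative-labelled library of pool 3 stood out for acvr1l, at 25.31 TPM against 1.85 to 5.65 TPM in the other negative-labelled libraries and 4.57 to 6.97 TPM in the other libraries of pools 3 and 4. It also stood out for SMAD4 (ENSDARG00000075226), at 13.18 TPM against 2.66 to 3.74 TPM in the other libraries of pools 3 and 4. The positive-labelled library of pool 3 stood above the other positive-labelled ones for TGFBR2 (ENSDARG00000034541), at 24.2 TPM against 6.7 to 9.46 TPM. For SMAD3 (ENSDARG00000010207) it was at 12.12 TPM against 2.6 to 3.09 TPM. For SMAD6 (ENSDARG00000031763) it was at 18.14 TPM against 2.36 to 4.13 TPM. All 12 flags rest on TPM as deposited, and the check was not repeated after scaling. After scaling, this library was still the highest positive-labelled one for these 3 identifiers, but by less. TGFBR2 was then at 14.73 against 7.88 to 13.14, SMAD3 at 7.38 against 2.45 to 4.49, and SMAD6 at 11.05 against 1.97 to 6.01.

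The other flagged values were lower, at most 9.66 TPM. BMPR1A (ENSDARG00000105045) was at 9.66 TPM in the negative-labelled library of pool 2, against 5.41 to 6.01 TPM in the other libraries of pools 1 and 2. nog2 was at 0.41 TPM in that library, against 0 to 0.07 TPM, and chrd at 0.22 TPM in the negative-labelled library of pool 1, with the other 3 listed at 0. GREM1 (ENSDARG00000104618) was at 1.02 TPM in the negative-labelled library of pool 4 against 0 to 0.12 TPM in the other negative-labelled ones, and at 0.86 TPM in the positive-labelled library of pool 1 against 0 to 0.14 TPM in the rest of pools 1 and 2. INHBA (ENSDARG00000024759) was at 2.01 TPM in the positive-labelled library of pool 4, with the other libraries of pools 3 and 4 listed at 0.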

How the results depend on the processing

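Between pools, the count of genes called was 4533 with TPM as deposited, 1442 without a filter, 1527 in the positive-labelled and 1327 in the negative-labelled libraries alone, and 633 to 3156 without 1 pool, against 2800. Members called were 22 as deposited (20 higher) and 4 to 12 without 1 pool. Higher members were 3 to 9 without 1 pool, and lower members were 1 without a filter, without pool 1 or without pool 2. Fits without 1 pool have 3 pools in place of 4; for the others the cause was not tested. For the labelled sort, the fit without the replicate block called 0 genes, as the blocked fit did. Leaving out a pool or library gave 0 to 3 genes, and the change of the sort difference gave 0 or, without pool 4, 1.

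As deposited, the 6 uncalled members named above changed direction. Followed through every alternative, SMAD3 (ENSDARG00000036096) moved to 0.030 with upper-quartile scaling, 1.03 as deposited and 0.082 in the negative-labelled libraries alone (without 1 pool it ranged from -0.13 to 0.11), and TGFB3 to 0.55 as deposited. Limits are the unknown depth, 2 pools on each side of the main difference, no label that separates these pools, labels that wt1a does not follow and that may not name the cells in each library, and paralogs that may share reads.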

Other observations

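The summed levels of the remaining marker lists are given without a test of the sums. Smooth muscle and pericyte markers summed to 66.1 to 92.0 TPM in pools 1 and 2 and 449 to 769 TPM in pools 3 and 4. TAGLN (ENSDARG00000033466) made up most of this sum, at 37.3 to 66.5 and 399 to 611 TPM. MYH11 (ENSDARG00000009782) went the other way, at 7.86 to 14.1 and 0.26 to 4.19 TPM. Of 7 tested identifiers in this list, 3 were called higher and 1 lower, against 7.99% and 12.2% of all genes tested. Macrophage markers summed to 180 to 294 and 125 to 240 TPM. Erythrocyte markers summed to 644 to 1503 and 5.95 to 31.5 TPM, thrombocyte markers to 9.43 to 13.7 and 3.22 to 6.48 TPM, neutrophil markers to 3.07 to 16.0 and 0.08 to 4.96 TPM, and Schwann and neural markers to 0 to 1.58 and 2.89 to 18.5 TPM.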
